A study of Homo sapiens with 27 samples.

Results

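The 10 genes described here are the 6 GATA transcription factors GATA1 to GATA6, the FOG cofactors ZFPM1 and ZFPM2, and LMO2 and TAL1, which join GATA proteins in shared complexes. They were taken by symbol, and all 10 were found among the 23228 symbols of the table. RNA sequencing was used to read transcript levels in 3 human prostate cancer sublines, DU145-DR, 22Rv1-DR and ARCaPM-DR, which the labels call castration-resistant and tag as Ch-CRPC. Each line carried a random control hairpin (Control) or 1 of 2 short hairpin RNAs against GATA2 (shGATA2a and shGATA2b), with 3 replicates per group, 9 groups and 27 libraries. All cells, controls included, therefore received a hairpin. The labels do not give the hairpin sequences, the vector, or whether a line is 1 clone, nor whether replicates are separate cultures. P-values therefore reflect the variation among the deposited libraries, part of which may be technical.

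GATA factors are zinc finger proteins that bind DNA at short motifs with the core letters GATA. GATA1, GATA2 and GATA3 are best known from blood cells, and GATA4, GATA5 and GATA6 from heart and gut. In prostate cells GATA2 is known as a partner of FOXA1. FOG proteins do not bind DNA themselves: they dock on the N-terminal finger of a GATA factor and recruit the NuRD and CtBP repressor complexes. In blood precursors GATA factors also sit beside TAL1, LMO2 and LDB1, where LMO2 bridges the DNA-binding proteins.

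Values are normalised reads, meaning read counts that the authors divided by 1 factor per library. The reads recovered from them numbered 3435702 to 19396302 per library, with a median of 12866049, and the shallowest was ARCaPM-DR shGATA2a replicate 3, where 1 read equals 3.89 normalised reads. Of 433407 values above 0, 99.954% were a whole number of reads within 0.005 reads, and 199 values in 58 genes were not. Among the members only GATA2 held such values, 12 of its 27. Of the prostate epithelial markers KLK3 and TMPRSS2, both had reads in 22Rv1-DR controls and none in DU145-DR controls, and KLK3 had none in ARCaPM-DR controls. Of 9 blood markers, PF4 and CD3E were at 0 in the controls of every line, and the summed level of the 9 was 29.3 to 47.6 normalised reads over the 9 control libraries. In DU145-DR that sum was 35.5 to 36.5 in controls and 11.5 to 24.7 with shGATA2a, while the sum of 6 endothelial markers was 10.4 to 13.5 in controls, 31.6 to 52.1 with shGATA2a and 22.9 to 29.8 with shGATA2b, through KDR and ROBO4, with PECAM1 at 0 in controls. In ARCaPM-DR the endothelial sum was 46.3 to 159 in controls and 9.32 to 67.7 in hairpin libraries, with overlap and with PECAM1 and KDR at 0 in controls. The sum of 5 fibroblast markers there was 2368 to 4777 in controls, 7674 to 14932 with shGATA2a and 5689 to 11447 with shGATA2b, without overlap and with PDGFRB at 0. The largest part of that fibroblast sum was COL3A1, at 2198 ± 1027 (SD, n = 3) in controls and 8650 ± 3360 (n = 6) with the hairpins. In DU145-DR the fibroblast sum was 170 to 217 in controls, 97.1 to 117 with shGATA2a and 95.8 to 179 with shGATA2b, with COL1A2 and DCN at 0. Whether these bear on the members was not tested.

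Hairpin and protein sequences were not used here, and the promoter of the targeted gene is the sequence shown. Start windows from RefSeq (GRCh38.p14) were taken for 5 of the 10 members, 12 windows in all. Windows on the chromosomes of GATA4, GATA6 and ZFPM2 were left out beforehand, so these members were not searched. GATA5 and LMO2 had no window among the 12 and were not searched either. Of the 12 windows, 2 belong to GATA2, on the minus strand of chromosome 3 at chr3:128493202-128493451 and chr3:128488531-128488780. The 250 bases before each start are printed 5′ to 3′ to show how they are composed, with a GC content of 72.8% and 71.2%. The motif GATAA, searched on both strands (as GATAA or TTATC) in windows of 300 bases that run 50 past the start, would stand in capitals and is in neither.
GATA2 start 1: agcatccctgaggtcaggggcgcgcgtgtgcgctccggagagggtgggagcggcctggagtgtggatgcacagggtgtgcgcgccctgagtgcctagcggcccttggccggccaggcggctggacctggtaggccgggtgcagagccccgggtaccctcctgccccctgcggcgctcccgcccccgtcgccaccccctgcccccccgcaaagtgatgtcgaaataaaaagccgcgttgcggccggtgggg
GATA2 start 2: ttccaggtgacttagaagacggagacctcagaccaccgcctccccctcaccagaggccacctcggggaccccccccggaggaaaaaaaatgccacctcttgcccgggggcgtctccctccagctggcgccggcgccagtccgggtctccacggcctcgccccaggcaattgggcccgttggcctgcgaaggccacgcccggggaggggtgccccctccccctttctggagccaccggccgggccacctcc

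Among all 35116 RefSeq windows, 22.7% held the motif. It was in 2 of the 12 member windows searched, 1 of 6 for GATA3 and 1 of 2 for TAL1. The 12 windows lack GATA4, GATA5, GATA6, ZFPM2 and LMO2. The 22.7% was taken over all chromosomes, so the shares are not on the same basis. A match or its absence describes these letters only. The read table uses another build (hg19), so no read position is tied to these coordinates.

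GATA2, the gene the hairpins target, was lower in every hairpin library than in every control library of its line. In ARCaPM-DR, where all 9 values were whole reads, the controls held 173, 153 and 145 normalised reads. The shGATA2a libraries held 26.4, 30.9 and 46.6, and the shGATA2b libraries 17.3, 20.1 and 21.7. The groups did not overlap, and both hairpins together kept 17.3% of the control mean. The log2 fold change was -2.56 (SE 0.22, limma adjusted p = 8.8e-05). In bulk RNA, fewer cells with a transcript and less transcript per cell cannot be told apart.

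In DU145-DR, GATA2 stood at 1255, 1135 and 925 normalised reads in controls. It stood at 225, 334 and 288 with shGATA2a and at 266, 385 and 346 with shGATA2b, so the groups again did not overlap. The log2 fold change was -1.85 (SE 0.15, limma adjusted p = 5.5e-05), with 27.8% of the control mean left. All 3 controls and 1 library of each hairpin were not whole reads. In 22Rv1-DR, the controls held 3444, 4307 and 3052, the shGATA2a libraries 966, 1348 and 840, and the shGATA2b libraries 806, 1738 and 1101. There the log2 fold change was -1.71 (SE 0.24, limma adjusted p = 0.0256), with 31.5% left, but 7 of the 9 values were not whole, and only 3444 and 1738 were.

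Each of the 12 GATA2 values that were not whole became a whole number of reads, within 3.5e-07 reads, when 1 multiple of 10 normalised reads was taken off or added back. Multiples up to 2000 in either direction were tried, 400 in all, with a tolerance of 1e-05 reads that together cover 0.8% of the interval between whole reads. Exactly 1 multiple fitted each value. A first search, of up to 10 multiples of 100, had found 1 offset for 8 of the 12, and it was widened after these values were seen. The DU145-DR controls carried offsets of 300, 200 and 200 above a whole count, shGATA2a replicate 1 an offset of -40 and shGATA2b replicate 2 an offset of 30. In 22Rv1-DR, Control replicates 2 and 3 carried 1300 and 1100, the shGATA2a libraries -800, -600 and -700, and shGATA2b replicates 1 and 3 -800 and -300. All 5 control offsets lay above 0 and 6 of the 7 hairpin offsets below 0. Over all 58 genes, 195 of the 199 values had 1 such offset, with 107 above and 40 below 0 in controls and 21 above and 27 below 0 in hairpin libraries. The labels and the submitters' notes do not say how the offsets arose.

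With these offsets removed, GATA2 in DU145-DR had a mean of 871 ± 127 (SD, n = 3) in controls and 309 ± 40.9 (n = 6) with the hairpins, and the fall remained past the threshold (log2 fold change -1.49, SE 0.13, limma adjusted p = 7.5e-05). In 22Rv1-DR the controls became 3444, 3007 and 1952, the shGATA2a libraries 1766, 1948 and 1540, and the shGATA2b libraries 1606, 1738 and 1401. The hairpin libraries still lay below the controls, with 1948 and 1952 as the closest pair. The log2 fold change there was -0.72 (SE 0.18), with 59.5% of the control mean left, and it did not pass the threshold (limma adjusted p = 0.283, 0.0581 with the replicate number as a block, 0.267 by edgeR). An exact two-sided permutation test of GATA2 in 6 hairpin and 3 control libraries returned p = 0.0119 in each line, with and without the offsets. This is the smallest that 84 splits allow, and it follows from the groups not overlapping. Even on the deposited values the 22Rv1-DR call was lost without any 1 of 7 libraries (all but shGATA2b replicate 2 and Control replicate 3), and the adjusted p then reached up to 0.110.

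**Figure D1:**
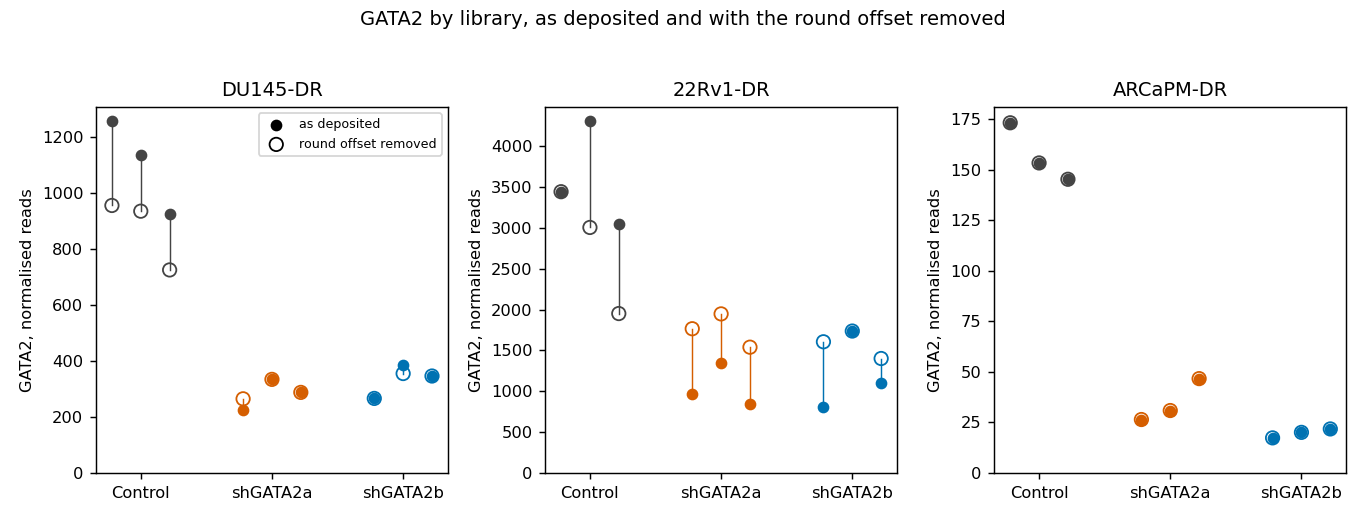
Normalised reads of GATA2 (linear axis from 0) in the 9 libraries of each line, by group. Filled points are the deposited values and open circles the values with the round offset removed, joined by a line where they differ. In 22Rv1-DR the lowest control and the highest hairpin library are 1952 and 1948 once offsets are removed, and in ARCaPM-DR no value had an offset.

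The size of the GATA2 fall was compared between lines with 1 fit of all 27 libraries. On the deposited values the difference did not pass (adjusted p = 0.135 for GATA2 by limma's F test). With the offsets removed it did (adjusted p = 1.4e-04): the fall was larger in ARCaPM-DR than in 22Rv1-DR (log2 difference -1.84, SE 0.25, adjusted p = 1.2e-04) and larger than in DU145-DR (log2 difference -1.07, SE 0.25, adjusted p = 0.0090), while 22Rv1-DR and DU145-DR differed by 0.78 (SE 0.25, adjusted p = 0.138). The call on the deposited values also depended on the replicate number: with it as a block, the GATA2 difference between lines passed (adjusted p = 0.0180), as did ARCaPM-DR against 22Rv1-DR (adjusted p = 0.0165) and against DU145-DR (adjusted p = 0.0341).

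The hairpins were also set against each other. In ARCaPM-DR, GATA2 was at 12.5% of the control mean with shGATA2b and 22.0% with shGATA2a, and the groups did not overlap (log2 difference -0.75, SE 0.25, limma adjusted p = 0.257). In DU145-DR 25.5% was left with shGATA2a and 30.1% with shGATA2b, and in 22Rv1-DR 29.2% and 33.7%, on the deposited values. With the offsets removed these shares were 33.9% and 37.0% in DU145-DR, and 62.5% and 56.5% in 22Rv1-DR, where the order of the hairpins turned. No member passed for a difference between hairpins in any line by limma, where 0.803% of all genes passed in ARCaPM-DR and 0.0% in each of the other lines. At an unadjusted p under 0.05 the members numbered 0, 0 and 3 (GATA2, GATA6 and ZFPM1), edgeR called none in any line, and DESeq2 called ZFPM1 in ARCaPM-DR.

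The other GATA factors differed in where they were read: GATA6 and GATA3 in all 3 lines, GATA4 and GATA5 mainly in 1 line each. GATA4, a cardiac and gut factor, was a DU145-DR transcript. Its controls there held 262, 284 and 268 normalised reads, against 211, 193 and 208 with shGATA2a and 193, 238 and 220 with shGATA2b. Every hairpin library lay below every control. GATA4 fell by 0.37 on the log2 scale (log2 fold change -0.37, SE 0.10, limma adjusted p = 0.0303), and its values were all whole reads. The call was lost without any 1 of Control replicates 1, 2 and 3 or shGATA2a replicate 2 (adjusted p 0.0524 to 0.136), and in 1 fit of all 27 libraries (0.708). Leaving out 1 library gave GATA4 log2 fold changes of -0.40 to -0.33. With the replicate number as a block GATA4 passed for both hairpins together (adjusted p = 0.0028) and for shGATA2b alone (adjusted p = 0.0249).

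GATA4 had 0 to 3 reads per library in 22Rv1-DR, and in ARCaPM-DR it had 1 read over all 9 libraries. Its DU145-DR controls, at 271 ± 11.8 (SD, n = 3), were at least 313-fold higher than those of ARCaPM-DR, set against 3 reads over the group. GATA5, of the same subfamily, was read in another line: 22Rv1-DR controls held 16.3, 13.9 and 12.2 normalised reads, and DU145-DR controls and all ARCaPM-DR libraries held none. Its 22Rv1-DR level was at least 19.3-fold higher than that of DU145-DR and at least 16.3-fold higher than that of ARCaPM-DR. GATA5 in 22Rv1-DR ran from 6.76 to 20.7 in the 6 hairpin libraries, across the control range (log2 fold change -0.23, SE 0.37, limma adjusted p = 0.829).

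GATA6, best known from gut and heart, was measured in all 27 libraries. In DU145-DR its controls held 215, 212 and 249 normalised reads and its hairpin libraries 208 to 285, with a log2 fold change of 0.16 (SE 0.13, limma adjusted p = 0.398). In 22Rv1-DR GATA6 controls held 363, 451 and 386 and hairpin libraries 309 to 463, with a log2 fold change of -0.01 (SE 0.17, adjusted p = 0.987) that turns to 0.00 to 0.03 under other scalings. The groups overlapped in both lines.

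In ARCaPM-DR GATA6 was at 103, 52.6 and 85.1 in controls, at 66.6, 39.8 and 77.7 with shGATA2a and at 28.9, 23.8 and 49.7 with shGATA2b. All 3 shGATA2b libraries lay below the 3 controls, and the shGATA2a libraries overlapped them. Neither contrast passed the threshold in this fit, with a log2 fold change of -1.23 for shGATA2b (SE 0.37, limma adjusted p = 0.0519) and -0.80 for both hairpins (SE 0.32, adjusted p = 0.109). Without the shallowest library the GATA6 change with shGATA2b passed (adjusted p = 0.0445), and edgeR and DESeq2 also called it. In the fit of all 27 libraries GATA6 was past the threshold for both hairpins in ARCaPM-DR (adjusted p = 0.0161). The replicate block also called it for both hairpins, while edgeR and DESeq2 did not. With any single library left out, GATA6 did not pass for both hairpins by limma (adjusted p 0.0655 to 0.347).

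GATA3, a factor of T cells and of breast and bladder epithelium, stood highest in 22Rv1-DR, with 104, 151 and 53.8 normalised reads in controls and 87.2 to 151 with the hairpins (log2 fold change 0.22, SE 0.30, limma adjusted p = 0.801). GATA3 was at 7.83 to 17.8 in DU145-DR controls and at 15.9 to 31.5 in ARCaPM-DR controls, with log2 fold changes of -0.53 (SE 0.34, adjusted p = 0.313) and 0.06 (SE 0.30, adjusted p = 0.917). Hairpin and control libraries overlapped in each line. GATA1, the erythroid and megakaryocyte factor, had 8 reads in DU145-DR, none in 22Rv1-DR and 2 in ARCaPM-DR over the 9 libraries of each, and it passed no filter.

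ZFPM1 (FOG-1), which partners GATA1 and GATA2 in blood cells, had a negative log2 fold change for both hairpins together in each line, and none passed the limma threshold. In 22Rv1-DR its controls held 313, 398 and 279 normalised reads, the shGATA2a libraries 148, 284 and 128 and the shGATA2b libraries 217, 218 and 121. Only shGATA2a replicate 2, at 284, reached into the control range. The log2 fold change of ZFPM1 there was -0.88 (SE 0.28, limma adjusted p = 0.346, 0.0570 with the replicate block), where 0.4% of all genes passed.

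In DU145-DR ZFPM1 controls held 135, 106 and 82.2, the shGATA2a libraries 79.9, 74.9 and 61.7 and the shGATA2b libraries 87.4, 112 and 82.8. The shGATA2a libraries lay below all controls and the shGATA2b libraries among them. ZFPM1 had a log2 fold change of -0.36 there (SE 0.17, limma adjusted p = 0.170), which passed with the replicate number as a block (adjusted p = 0.0282). In ARCaPM-DR the controls held 92.5, 127 and 129, the shGATA2b libraries 157, 113 and 142, and the shGATA2a libraries 36.5, 68.7 and 3.89, the last being 1 read in the shallowest library.

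For ZFPM1 in ARCaPM-DR the shGATA2a libraries lay below all controls and the shGATA2b libraries ran from within to above them. The log2 fold change was -2.31 with shGATA2a (SE 0.76, limma adjusted p = 0.0751) and 0.24 with shGATA2b (SE 0.76, adjusted p = 0.872). With shGATA2a ZFPM1 was called by DESeq2, with the replicate block and in 1 fit of all 27 libraries, and not by edgeR. Without the shallowest library the ZFPM1 change with shGATA2a was -1.18 (SE 0.30) and passed (adjusted p = 0.0384), and the difference between hairpins was 1.42 (SE 0.30, adjusted p = 0.111).

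ZFPM2 (FOG-2), the partner of GATA4 in the heart and gonad, was highest in DU145-DR, as GATA4 was. DU145-DR controls held 63.9, 59.2 and 83.0 normalised reads of ZFPM2, and 22Rv1-DR controls 13.8, 8.93 and 15.5. ARCaPM-DR had no read in any of its 9 libraries, so DU145-DR controls were at least 79.3-fold higher. The ZFPM2 groups overlapped in DU145-DR (log2 fold change -0.08, SE 0.17, limma adjusted p = 0.790) and in 22Rv1-DR (0.21, SE 0.34, adjusted p = 0.834).

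LMO2, the LIM-domain bridge of the blood complex, was highest in ARCaPM-DR. ARCaPM-DR controls held 67.4, 71.0 and 40.3 normalised reads and DU145-DR controls 27.4, 25.0 and 17.3, while 22Rv1-DR had 7 reads over 9 libraries. LMO2 overlapped between hairpin and control libraries in ARCaPM-DR (log2 fold change -0.43, SE 0.29, limma adjusted p = 0.343) and in DU145-DR (0.33, SE 0.25, adjusted p = 0.391). TAL1, the basic helix-loop-helix partner of LMO2, had 4 reads in DU145-DR, all in controls, 11 in 22Rv1-DR and none in ARCaPM-DR, and passed no filter.

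**Figure D2:**
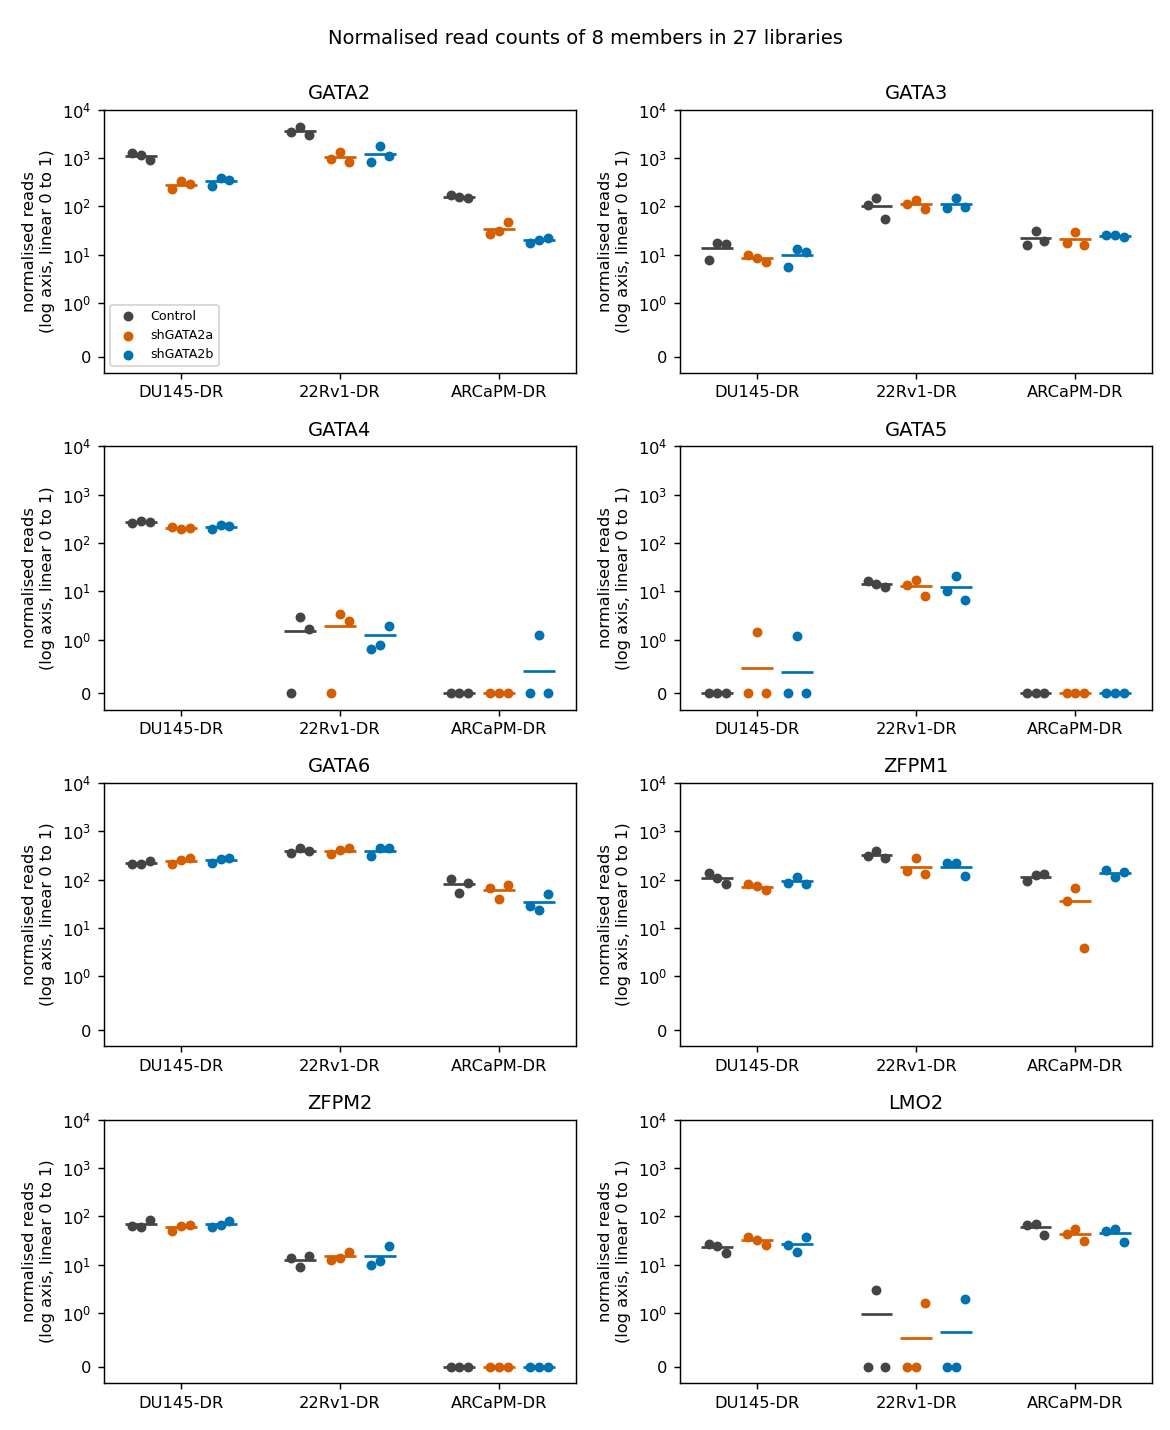
Normalised reads as deposited (log axis, linear from 0 to 1) of 8 members in the 27 libraries, 3 points per group with a bar at the group mean. GATA4 stands near 200 to 300 in DU145-DR alone, GATA5 has at most 1 read in any library outside 22Rv1-DR, and the single low ZFPM1 point in ARCaPM-DR is the library with 1 read.

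By count, 7 of the 10 members passed the filter on low values in DU145-DR and 2 were called for both hairpins (GATA2 and GATA4, lower), beside 16.7% of 13362 genes. In 22Rv1-DR 6 were tested and 1 was called (GATA2), beside 0.4% of 13757, and in ARCaPM-DR 5 were tested and 1 was called (GATA2), beside 18.5% of 13079. None was called higher. With shGATA2a alone 2 (GATA2 and GATA4), 0 and 1 (GATA2) were called in the 3 lines in that order, beside 16.1%, 0.0% and 12.8% of all genes. With shGATA2b alone 1, 0 and 1 were called, GATA2 each time, beside 5.81%, 0.00727% and 14.5%. The members with an unadjusted p under 0.05 in 22Rv1-DR were GATA2 and ZFPM1 for each hairpin; edgeR called none there and DESeq2 called GATA2. GATA2 is the target, so 1 of 6, 0 of 5 and 0 of 4 tested members other than GATA2 were called in these fits without the replicate block. With the replicate number as a block, ZFPM1 was called beside GATA4 in DU145-DR and GATA6 was called in ARCaPM-DR. In 22Rv1-DR the block called no member other than GATA2. The share of all genes called with the block is not given here. All 6 hairpin libraries lay to 1 side of the controls for GATA2 in each line and for GATA4 in DU145-DR, beside 18.7%, 6.94% and 21.0% of all genes in the 3 lines in that order. No member passed for a knockdown effect that differs between lines (limma, 8 tested, beside 7.0% of all genes). There 2 members, GATA2 and GATA6, had an unadjusted p under 0.05, edgeR called none and DESeq2 called GATA6.

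**Figure D3:**
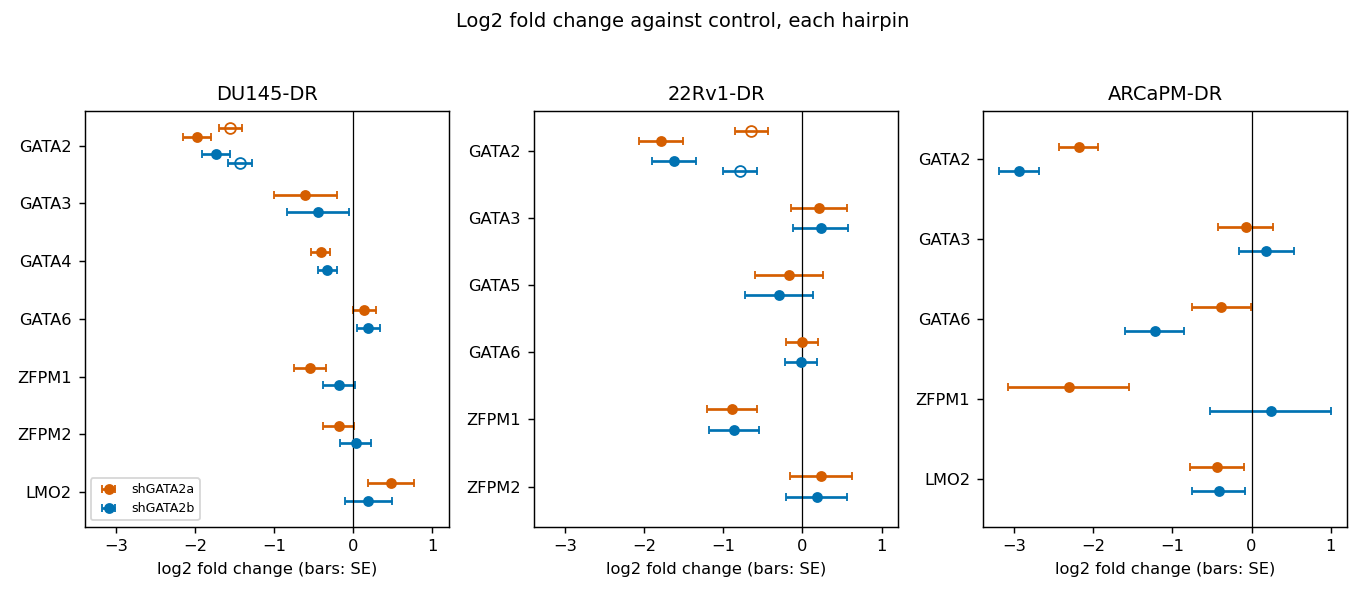
Log2 fold change against control (log2 of value + 1, bars are standard errors) of the tested members in each line, shGATA2a in orange and shGATA2b in blue. Open circles give GATA2 with the round offsets removed, -0.64 and -0.79 in 22Rv1-DR for the 2 hairpins against -1.79 and -1.62 as deposited.

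The control libraries give each line's set of GATA factors. Per kb of its longest annotated transcript (GENCODE), GATA2 had the top level of the 10 members in every line. 22Rv1-DR controls held 1070 ± 191 normalised reads per kb of GATA2, DU145-DR controls 328 ± 49.6 and ARCaPM-DR controls 46.7 ± 4.27 (SD, n = 3). With the offsets removed 22Rv1-DR held 832 ± 228 and DU145-DR 259 ± 37.8, still on top. GATA2 was followed in DU145-DR by GATA4 at 79.5 ± 3.45 and GATA6 at 59.8 ± 5.41. In 22Rv1-DR the next members were GATA6 at 106 ± 12.2 and ZFPM1 at 61.3 ± 11.4. In ARCaPM-DR they were LMO2 at 26.0 ± 7.31, ZFPM1 at 21.6 ± 3.83 and GATA6 at 21.3 ± 6.80, which lay within each other's spread.

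**Figure D4:**
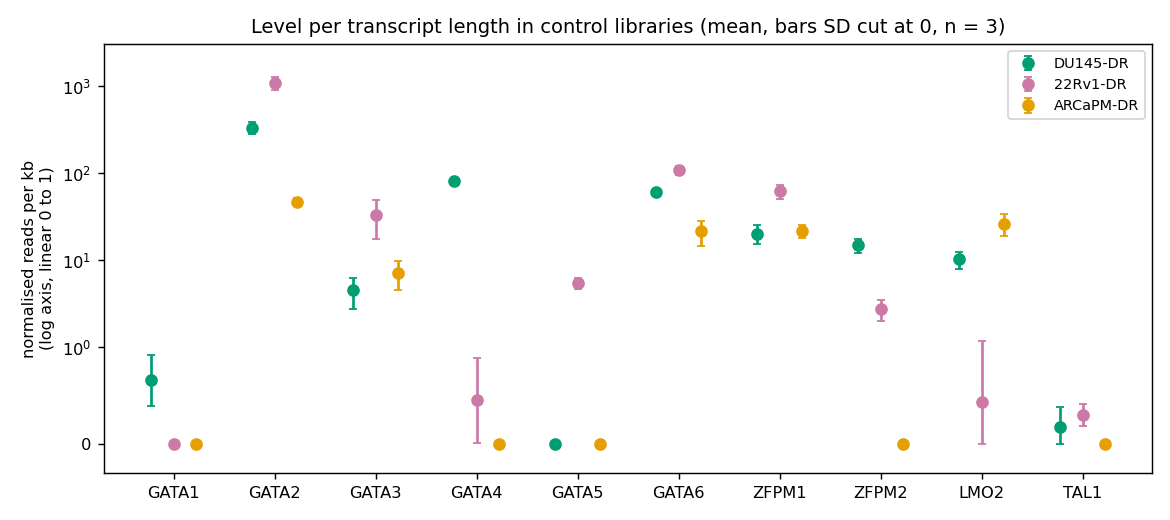
Normalised reads per kb of transcript (log axis, linear from 0 to 1) in control libraries, mean with SD over 3 libraries of each line. GATA2 is the highest point of every line, from 46.7 in ARCaPM-DR to 1070 in 22Rv1-DR, and GATA4, GATA5, ZFPM2 and LMO2 each lie near 0 in at least 1 line.

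Between lines, GATA2 in controls was ordered 22Rv1-DR above DU145-DR above ARCaPM-DR, with each step past the threshold (log2 difference 1.70, SE 0.17, for 22Rv1-DR minus DU145-DR, and -2.80, SE 0.17, for ARCaPM-DR minus DU145-DR, adjusted p = 4.55e-06 and 1.01e-07 by limma). With the offsets removed these GATA2 differences were 1.65 and -2.46 and both passed. GATA6 had the same order, with log2 differences of 0.82 (SE 0.24, adjusted p = 0.0108) and -1.53 (SE 0.24, adjusted p = 2.5e-04). ZFPM1 was higher in 22Rv1-DR than in the other lines (1.62 over DU145-DR, SE 0.24, adjusted p = 1.2e-04), and DU145-DR and ARCaPM-DR did not differ beyond their spread (0.12, SE 0.24, adjusted p = 0.700). GATA3 in 22Rv1-DR was likewise above both, by 2.75 over DU145-DR (SE 0.43, adjusted p = 1.7e-04), while ARCaPM-DR and DU145-DR differed by 0.65 (SE 0.43, adjusted p = 0.230). LMO2 was higher in ARCaPM-DR than in DU145-DR (1.31, SE 0.50, adjusted p = 0.0451), a call lost without ARCaPM-DR Control replicate 1 or 2 or any 1 DU145-DR control.

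Of all genes, 67.6% passed between 22Rv1-DR and DU145-DR, 56.1% between ARCaPM-DR and DU145-DR and 67.1% between ARCaPM-DR and 22Rv1-DR. Several members reached the filter only through the line where they are high, so a count of called members supports nothing in these contrasts.

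The proteins that FOG and GATA factors work with were followed in lists of known partners. Of 15 NuRD and FOG partners, all tested in each line, 1 rose and 1 fell in DU145-DR, none passed in 22Rv1-DR and 3 fell in ARCaPM-DR, beside 16.7%, 0.4% and 18.5% of all genes called in either direction. The median log2 fold change of the list was 0.04, -0.04 and -0.21, against -0.002, -0.016 and -0.004 over all genes. CTBP1, a corepressor that FOG proteins bind, fell in ARCaPM-DR. It went there from 529 to 567 normalised reads in controls to 147 to 167 in the 6 hairpin libraries (log2 fold change -1.79, SE 0.11, limma adjusted p = 2.7e-05). In 22Rv1-DR CTBP1 went from 1453 to 1887 down to 619 to 1065, without overlap, at a log2 fold change of -0.998 (SE 0.19, adjusted p = 0.0547, and 0.0102 with the replicate block), and in DU145-DR the groups overlapped (-0.07, SE 0.09, adjusted p = 0.643). The CTBP1 effect differed between lines (adjusted p = 1.5e-05 by limma's F test).

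The other genes of the list that were called belong to NuRD. MTA1, a metastasis-associated subunit, fell in DU145-DR by 0.81 (log2 fold change -0.81, SE 0.14, limma adjusted p = 0.0028) and CHD3, a chromatin remodeler, rose there by 0.39 (SE 0.12, adjusted p = 0.0412). CHD3 fell in ARCaPM-DR (-0.50, SE 0.10, adjusted p = 0.0064), a difference between lines that passed (adjusted p = 0.0181). RBBP4, a histone-binding subunit, fell in ARCaPM-DR (-0.34, SE 0.10, adjusted p = 0.0444). With the replicate block 5 of the 15 were called in DU145-DR and 1 in 22Rv1-DR. In 22Rv1-DR, where limma called 0 of 15, 1 had an unadjusted p under 0.05, and edgeR and DESeq2 each called 1.

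Of 26 partners of the LMO2 and TAL1 complex and other GATA cofactors, 17 were tested in ARCaPM-DR and 18 in each other line. Those called were 2 in DU145-DR, beside 16.7% of all genes, none in 22Rv1-DR and 1 in ARCaPM-DR, beside 18.5%. In DU145-DR the 2 that fell were SSBP3, which stabilises LDB1 (log2 fold change -0.67, SE 0.12, limma adjusted p = 0.0032), and CREBBP, an acetyltransferase (-0.60, SE 0.14, adjusted p = 0.0118). With the replicate block 7 were called there. In ARCaPM-DR 1 fell, MED1, the Mediator subunit that GATA1 binds (-0.80, SE 0.10, adjusted p = 7.2e-04), and its effect differed between lines (adjusted p = 0.0011). In 22Rv1-DR limma, edgeR and DESeq2 called none, and 1 had an unadjusted p under 0.05. The list's median log2 fold change was 0.02, 0.11 and -0.21 in the 3 lines.

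Of 26 textbook GATA targets, most of them genes of blood, heart or placenta, 9 passed the filter in ARCaPM-DR, 6 in 22Rv1-DR and 4 in DU145-DR. Limma, edgeR and DESeq2 called none in DU145-DR or 22Rv1-DR, where 2 and 0 had an unadjusted p under 0.05, and the replicate block called 2 in DU145-DR, ITGA2B and PLAC1. In ARCaPM-DR 2 of the 9 rose, beside 18.5% of all genes called in either direction, and edgeR and DESeq2 each called 3. PLAC1, a placental gene, went from 33.1 to 66.6 in controls to 105 to 247 normalised reads (log2 fold change 1.88, SE 0.31, limma adjusted p = 0.0029), and its effect differed between lines (adjusted p = 0.0057). KIT, the stem cell factor receptor, went from 5.29 to 14.0 to a range of 10.4 to 42.8 (log2 fold change 1.31, SE 0.37, adjusted p = 0.0367), with overlap. The medians of the list's tested genes were -0.31, -0.10 and 0.09.

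Among relatives with a GATA-type finger, TRPS1, GATAD1 and ZGLP1 were in the table, and 4 antisense symbols of the list were not analysed here. TRPS1, a repressor with a GATA finger, rose in ARCaPM-DR from 2.64 to 7.01 in controls to 11.4 to 43.8 normalised reads (log2 fold change 1.83, SE 0.43, limma adjusted p = 0.0173), and its effect differed between lines (adjusted p = 0.0284). FOXA1, a pioneer factor of prostate cells, had a log2 fold change of -0.19 in 22Rv1-DR (SE 0.23, limma adjusted p = 0.762).

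The genes next to GATA2 were read for comparison. In RefSeq's gene order the nearest neighbour in the table with reads on one side is LOC90246, a long noncoding RNA, which was chosen for description after its values were seen. Its values were all whole reads. DU145-DR controls held 72.4, 61.3 and 75.3 normalised reads of LOC90246 and hairpin libraries 29.8 to 54.4, without overlap (log2 fold change -0.74, SE 0.20, limma adjusted p = 0.0272). In ARCaPM-DR controls held 19.8, 26.3 and 25.6 and hairpin libraries 9.95 to 19.4, again without overlap (-0.86, SE 0.29, adjusted p = 0.0687). In 22Rv1-DR controls held 66.2, 87.3 and 55.4 and hairpin libraries 52.5 to 91.5, which overlapped (-0.02, SE 0.21, adjusted p = 0.982). Of all genes, 18.7% did not overlap and 16.7% were called in DU145-DR. These shares were 21.0% and 18.5% in ARCaPM-DR, and 6.94% and 0.4% in 22Rv1-DR. The LOC90246 effect did not pass for a difference between lines (adjusted p = 0.194). The sources do not say whether counting used strand, so reads of LOC90246 and of a transcript on the other strand cannot be told apart.

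Further out, EEFSEC did not pass in any line (adjusted p 0.596 to 0.928 by limma). RPN1 fell in ARCaPM-DR (-0.35 on the log2 scale, SE 0.09, adjusted p = 0.0199) and not in DU145-DR (0.04, SE 0.08, adjusted p = 0.770) or 22Rv1-DR (-0.26, SE 0.13, adjusted p = 0.528). RAB7A rose in DU145-DR (0.44, SE 0.07, adjusted p = 0.0020) and ARCaPM-DR (0.56, SE 0.17, adjusted p = 0.0477), with 0.28 in 22Rv1-DR (SE 0.15, adjusted p = 0.532). These calls stand beside 16.7% of all genes called in DU145-DR, 18.5% in ARCaPM-DR and 0.4% in 22Rv1-DR.

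The genes most like each abundant member were taken over the 9 group means, as a description, from 12177 genes averaging 50 or more. For GATA2 they were ARHGEF26 (Pearson r 0.989), MAP2K3 (0.987) and NTHL1 (0.987), and with the offsets removed these had r of 0.978, 0.973 and 0.969. For GATA4 they were NCAM1 (0.999), OSMR (0.998) and BRSK1 (0.998), and for GATA6 MIIP (0.997), HK1 (0.992) and COX18 (0.990). ZFPM1 was less closely matched, with NDUFS3 (0.957), PLOD3 (0.933) and C17orf101 (0.931). The 9 points come from 3 lines, and the values describe these groups only.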

How the data were processed

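Total RNA of 27 libraries was sequenced. Per the submitters' processing notes, TopHat2 2.0.9 and Cufflinks 1.3.0 were used with hg19 (GRCh37); they name no counting program, scaling tool or strand setting (not given in the sources used). The deposited table is a signal per gene: read counts that the authors divided by 1 factor per library. The factor was recovered from the steps between low values, and 99.954% of values above 0 were then whole reads. The authors' normalised read counts were tested here with limma 3.58.1 (R 4.3.3), with trend, as log2(value + 1), for genes at 10 or more in at least 3 libraries, each line fitted alone. Fold changes on this scale understate the change of low genes. P-values were Benjamini-Hochberg adjusted over all genes with a threshold of 0.05, and the knockdown is the mean of both hairpins minus control. Lines were compared in 1 fit of 27 libraries, and baselines in the 9 controls. EdgeR 4.0.16 and DESeq2 1.42.0 were run on the recovered reads, with values that were not whole rounded to the nearest read, as alternatives. The limma and edgeR fits were also run on simulated counts drawn without replicate pairing, and the outcome is not reported here. Where 3 reads are used as a floor, it covers counting error only.

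The members and lists were chosen with earlier results of these data known. Named genes are all members, the genes called within each list, and for each member with a mean of at least 50 the 3 genes with the highest Pearson r over group means; LOC90246, FOXA1 and the neighbours of GATA2 were named beside them. Replicate numbers pair the libraries in DU145-DR and 22Rv1-DR, where the lowest correlation of deviations between libraries of 1 number was 0.275 and 0.211 (9 pairs each), but not by the same rule in ARCaPM-DR, where it was 0.056. Promoter sequences are RefSeq's (GRCh38.p14), matched by symbol, without windows on the chromosomes of GATA4, GATA6 and ZFPM2. Members' other sequences were not used here. Some genes of the lists on prostate cells are not reported here.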

Additional observations from a re-analysis of the deposited data

How the results depend on the processing

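Of the alternatives for the main results, 158 were the same. For a fold change this means the same direction and side of the threshold, and for a count a change of at most 1.5 times. Another 23 moved a count by more than 1.5 times and 4 lost the call. For single members 206 kept the direction and side of the threshold, 6 turned sign, 7 gained a call and 1 lost one. GATA2 in 22Rv1-DR passed no threshold without the mean-variance trend (-1.71, adjusted p = 0.0571), with round offsets removed (-0.72, adjusted p = 0.283), with offsets removed and the replicate block (-0.72, adjusted p = 0.0581) or by edgeR with offsets removed (-0.73, adjusted p = 0.267); the cause of the first was not tested. The wider offset search and every fit built on it were chosen after seeing the data. Leaving out 1 library gave GATA2 -1.98 to -1.76 in DU145-DR, -1.85 to -1.57 in 22Rv1-DR and -2.68 to -2.48 in ARCaPM-DR.

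The count of members called in DU145-DR went from 2 to 3 with the replicate block, with or without offsets removed, through ZFPM1. It went from 2 to 1 in 1 fit of 27 libraries. It also went to 1 without the genes that hold values that are not whole, which drops GATA2 by construction. In 22Rv1-DR it went from 1 to 0 without the trend, with offsets removed (with and without the block, and by edgeR) and without those genes (with and without the block). In ARCaPM-DR it went from 1 to 2 with the block, with offsets removed and the block, and in 1 fit of 27 libraries, and to 0 without those genes. Between hairpins in ARCaPM-DR it went from 0 to 3 with the block (with or without offsets), 2 with the block and without those genes, and 1 by DESeq2 and in 1 fit of 27 libraries. Between lines it went from 0 to 2 with the block (with or without offsets) and 1 by DESeq2, with offsets removed (limma and edgeR), and with the block and without those genes. Leaving out 1 library gave 1 to 2 in DU145-DR, 0 to 1 in 22Rv1-DR and 1 to 1 in ARCaPM-DR, and 0 to 1 between ARCaPM-DR hairpins and between lines. At baseline it gave 7 to 8 for 22Rv1-DR against DU145-DR, 3 to 5 for ARCaPM-DR against DU145-DR and 6 to 7 for ARCaPM-DR against 22Rv1-DR, beside 67.6%, 56.1% and 67.1% of all genes; these counts include members that passed the filter only through the line where they are high, and support nothing.

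Small changes turned sign. GATA6 in 22Rv1-DR was 0.0024 with quantile normalization, 0.0075 with median-of-ratios scaling, 0.027 by edgeR (0.027 also with offsets removed) and 0.017 by DESeq2, and GATA3 in ARCaPM-DR was -0.057 with quantile normalization. Leaving out 1 library gave ZFPM2 -0.18 to 0.064 in DU145-DR and -0.010 to 0.36 in 22Rv1-DR, GATA3 -0.18 to 0.55 in 22Rv1-DR and -0.14 to 0.33 in ARCaPM-DR, and GATA6 -0.080 to 0.077 in 22Rv1-DR. In ARCaPM-DR 7 of 9 libraries correlated best with their own number, so the block is a hint there; with it 8 of 15 NuRD and FOG partners, 7 of 17 LMO2 and TAL1 partners and 6 of 9 textbook targets were called, against 3, 1 and 2 without it. In the shallowest library (3435702 reads) 1 read equals 3.89 normalised reads, which limits the low members.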
